A study of Rattus norvegicus with 15 samples.

Results

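RNA bound to Argonaute 2 was compared with polyadenylated RNA in islet cells that had received a control mimic. The comparison used the 6 control-transfected libraries of the 15 in the series, 3 titled RISC and 3 titled mRNA, chosen by their titles and by no measured value. The islets came from 10-day-old Sprague-Dawley rats and were dispersed before transfection, so both groups carry the same control mimic and differ in how RNA was recovered. For the RISC libraries, Ago2 was pulled down with a monoclonal antibody on magnetic beads and the bound RNA was chemically fragmented. For the mRNA libraries, polyadenylated RNA was selected on oligo(dT). The labels give no poly(A) selection for the RISC libraries, and no library of a control antibody was analysed here, so binding to Ago2 and the difference in preparation cannot be told apart. Nothing in the labels says which libraries came from separate animals or cultures. The p-values therefore reflect library-to-library spread alone, and that spread may be technical. As further material, 4 RISC and 5 mRNA libraries of cells given a miR-17-5p mimic were used to see how the same contrast came out in libraries that share no sample with the controls.

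Argonaute 2 is the protein at the core of the RNA-induced silencing complex, RISC. It holds a microRNA and pairs it with messenger RNAs through the microRNA's seed, the short stretch near its 5′ end, after which GW182 proteins of the Tnrc6 family bring in the enzymes that shorten, decap and degrade the message. In pancreatic beta cells miR-375 and miR-7 are among the best known microRNAs, and loss of miR-375 is known to disturb islet cell growth and hormone secretion.

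The microRNAs whose textbook targets were followed below are shown because the seed decides which messages the complex can select. Mature rat sequences are from RefSeq (build GRCr8), 5′ to 3′, with the seed, bases 2 to 8, in capitals.
let-7a-5p: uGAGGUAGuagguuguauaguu
miR-375-3p: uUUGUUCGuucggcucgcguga
miR-7a-5p: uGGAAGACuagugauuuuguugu
miR-29a-3p: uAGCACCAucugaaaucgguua
miR-17-5p: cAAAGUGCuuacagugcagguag
miR-20a-5p: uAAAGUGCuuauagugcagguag
miR-17-5p and miR-20a-5p share the seed AAAGUGC, and no other pair of these microRNAs shares one. The libraries themselves say nothing about these small RNAs. Of 383 microRNA genes in the count tables, 2 had any count in the control RISC libraries and 29 had any in the control mRNA libraries. Mir3593 was the only 1 of them that entered the test, with counts of 0, 116 and 0 in the RISC libraries and 13, 6 and 7 in the mRNA libraries.

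The 3 mRNA libraries held 10207925, 8297465 and 3379456 counts on genes, and the 3 RISC libraries 13420403, 8662423 and 4185123. The composition differed between the library types beyond the spread of either. Ins1 and Ins2 together took 38.7% ± 2.52 of counts in mRNA libraries (SD, n = 3) and 1.79% ± 0.157 in RISC libraries (n = 3). Rn45s, the ribosomal RNA precursor, took 6.94% ± 3.49 and 28.6% ± 8.04, in the same order. The genes of cytosolic ribosomal proteins took 2.79% ± 0.480 and 0.274% ± 0.025. Without Rn45s, 603 genes on average held 50% of a RISC library's counts, against 42.3 in mRNA libraries. After every library was thinned to 3379456 counts, 6417 ± 817 genes had a count in RISC libraries and 11721 ± 509 in mRNA libraries. None of these values overlapped between the groups, and each had p = 0.1 in an exact two-sided permutation test, the smallest that 3 against 3 libraries can give.

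**Figure D1:**
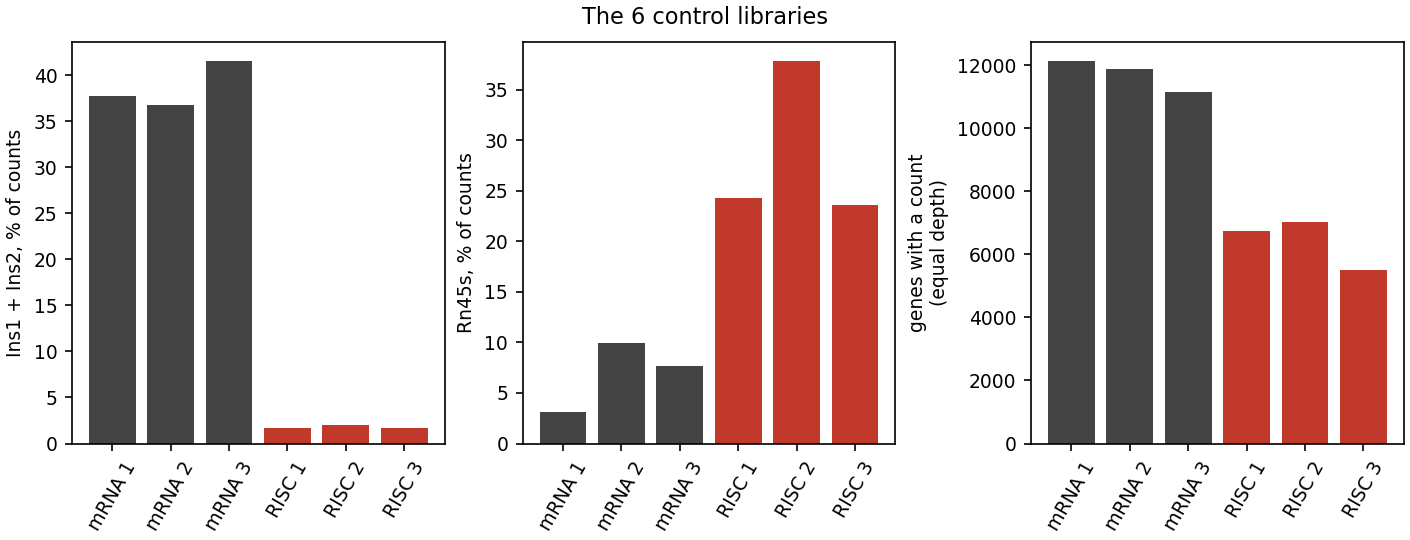
Share of counts from Ins1 and Ins2, share from Rn45s, and number of genes with a count at equal depth (y axes, from 0) in each of the 3 control mRNA and 3 control RISC libraries (x axis). The insulin share lies between 36.8% and 41.6% in mRNA libraries and between 1.69% and 1.97% in RISC libraries.

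The RISC libraries resembled each other less than the mRNA libraries did. Over the 10170 genes tested, Pearson's r between mRNA libraries was 0.927 to 0.964, between RISC libraries 0.588 to 0.617, and between the types 0.501 to 0.551 on log2(CPM + 0.5), where CPM is counts per 1e6, scaled by edgeR's TMM factors (across genes, given as a description). Only 4431 of these genes, 43.6%, had a count in all 3 RISC libraries, against 99.2% in the mRNA libraries. In the RISC libraries 3246 genes, 31.9%, had no count in 1 library and at least 100 counts in another, and in the mRNA libraries 4 genes did. Sst, the somatostatin gene, is such a case, with 1176, 527 and 0 counts in RISC libraries 1, 2 and 3. The part of this uneven coverage in the results below was not tested, and for this reason genes with counts in every RISC library are set apart.

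In edgeR's quasi-likelihood test with Benjamini-Hochberg adjustment, 606 of 10170 genes (5.96%) were higher in RISC libraries and 2264 (22.3%) were lower at an adjusted p under 0.05. The genes called higher had a median log2 fold change of 1.90, between 0.47 and 5.00, and all 606 had counts in every RISC library. Of the genes called lower, 1562 (69.0%) had no count in any RISC library and 260 had counts in all 3. These 1562 were all the tested genes without a RISC count, and they passed the filter through the mRNA libraries alone. A call lower therefore does not set such a gene apart, and its adjusted p adds little to the missing counts. The median over all tested genes was -0.69, so a gene that merely followed the others would lie below 0 on this scale. For 4057 genes (39.9%) every RISC value lay below every mRNA value, and for 1220 of the 10170 every RISC value lay above.

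The number of calls moved with the filter and with single libraries. Among the 3600 genes with at least 10 counts in every library, 573 were higher and 469 lower, around a median of 0.15. That filter leaves out, by its construction, genes at 0 in a RISC library, which were 2004 of the 2264 lower genes and 0 of the 606 higher ones. Without mRNA library 1, 2 or 3 the higher calls were 201, 209 and 311 and the lower ones 1054, 1227 and 1745. Without RISC library 1, 2 or 3 they were 705, 760 and 960 higher and 3444, 3780 and 3141 lower.

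**Figure D2:**
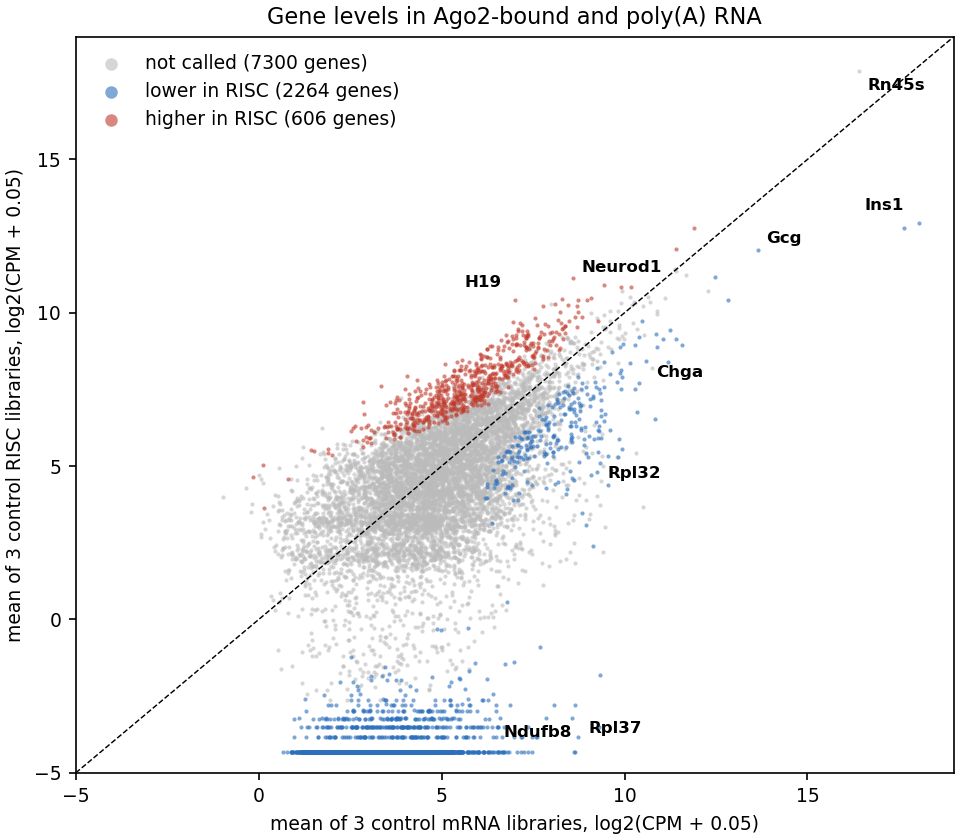
Mean TMM-scaled CPM of each tested gene in the 3 control mRNA libraries (x axis) and the 3 control RISC libraries (y axis), both as log2(CPM + 0.05), with genes called higher in RISC in red, lower in blue and not called in grey; the dashed line marks equal values. The blue band along the bottom is formed by genes with few or no counts in the RISC libraries, and the red genes lie above the dashed line.

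The gene with the smallest p among those higher in RISC was Neurod1, which encodes a transcription factor of islet cell differentiation. Its CPM was 346, 407 and 409 in the mRNA libraries and 2393, 2148 and 2145 in the RISC libraries. Every RISC value lay far above every mRNA value, a 5.75-fold difference (log2 fold change 2.52, SE 0.14, adjusted p = 0.00365). Zfp652, a zinc finger protein gene, had 43.5, 52.0 and 46.5 CPM in mRNA and 322, 390 and 333 CPM in RISC libraries (log2 fold change 2.88, SE 0.19, adjusted p = 0.00428). Nfat5, a transcription factor of the response to osmotic stress, had 127, 148 and 169 CPM in mRNA and 796, 758 and 791 CPM in RISC libraries. Within each of these genes the RISC libraries differed by much less than the 2 library types did.

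The other 9 genes at the top of the higher list had log2 fold changes between 2.05 for Fndc3b and 2.77 for Slmap, with adjusted p of at most 0.00566. Tnpo1, a nuclear import receptor, stood at 2.37. Secisbp2l stood at 2.44. The kinase gene Hipk3 stood at 2.58. Tjp1, which encodes the tight junction scaffold ZO-1, stood at 2.51. The RNA-binding protein gene Bicc1 stood at 2.20, the atypical cadherin Fat1 at 2.15 and the clock repressor Per2 at 2.33. Per2 had 85.9, 74.0 and 65.3 CPM in mRNA libraries and 372, 357 and 405 CPM in RISC libraries.

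**Figure D3:**
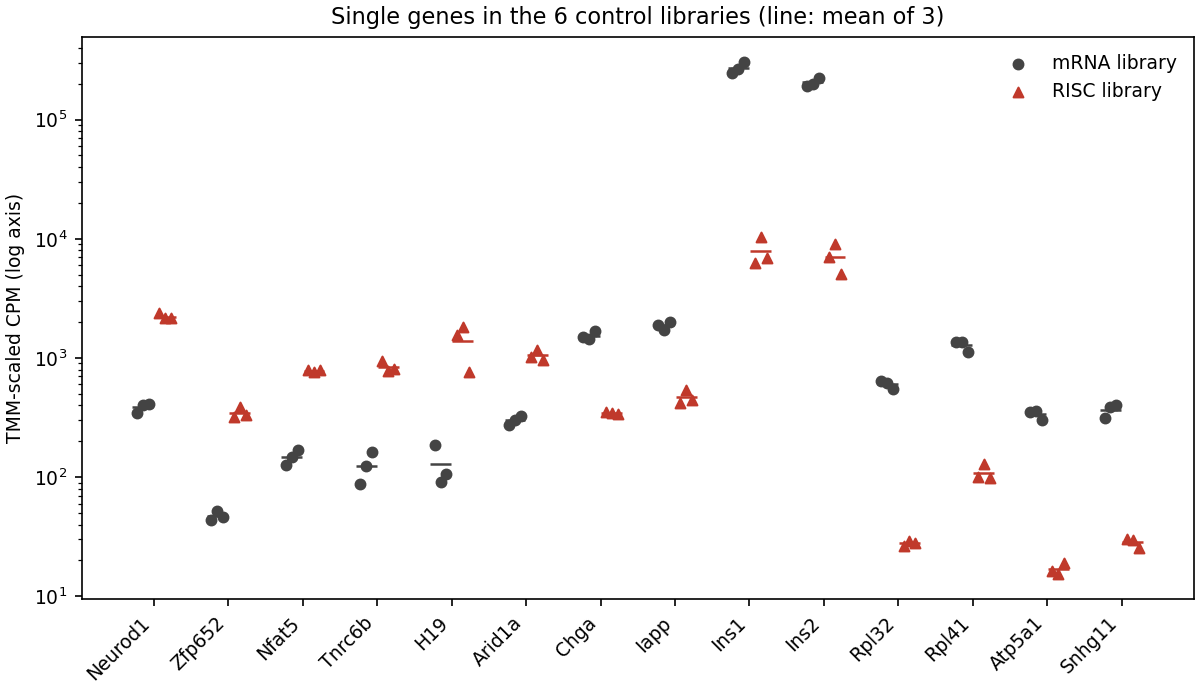
TMM-scaled CPM (log axis) of 14 genes in each of the 6 control libraries, mRNA as circles and RISC as triangles, with a line at the mean of each 3. Neurod1, Zfp652, Nfat5, Tnrc6b, H19 and Arid1a lie higher in every RISC library, and Chga, Iapp, Ins1, Ins2, Rpl32, Rpl41, Atp5a1 and Snhg11 lie lower in every one.

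Among genes of the silencing machinery itself, 6 of 26 tested were higher in RISC and 1 was lower, with a median log2 fold change of 0.46 against -0.69 over all genes. Counts in this and later lists of control cells are to be read against 5.96% higher and 22.3% lower over all genes tested. Tnrc6b, a GW182 protein that binds Argonaute, had 87.6, 123 and 162 CPM in mRNA libraries and 938, 773 and 801 CPM in RISC libraries, 6.74-fold higher (log2 fold change 2.75, SE 0.27, adjusted p = 0.00791). Its relative Tnrc6a had 118, 138 and 136 CPM and 447, 428 and 656 CPM (log2 fold change 1.97, SE 0.23, adjusted p = 0.00791). Dcp1a, a subunit of the decapping complex, had 21.3, 16.0 and 13.9 CPM and 165, 143 and 183 CPM (log2 fold change 3.26, adjusted p = 0.00771). All 3 messages were higher in every RISC library than in any mRNA library, as were 1220 of the 10170 genes tested. Ddx6, a helicase of the decapping step, followed with a log2 fold change of 1.64 (SE 0.27, adjusted p = 0.00987).

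The deadenylase gene Cnot6l and Xpo5, the exporter of microRNA precursors, completed the 6, both named after their values were seen. Their adjusted p lay between 0.0579 and 0.124 without mRNA library 1 or 2. Eif2c2, the name the tables give Ago2, had 25.3, 40.9 and 49.9 CPM in mRNA libraries and 200, 86.7 and 75 CPM in RISC libraries. Its groups did not overlap, and it was not called (log2 fold change 1.64, SE 0.53, adjusted p = 0.0764), but without RISC library 3 its adjusted p was 0.0435 and in DESeq2's Wald test 0.0206. The 1 lower member, Prkra, an activator of PKR that also partners Dicer, had no count in any RISC library and was named after its values were seen (adjusted p = 0.0121). The higher count was 4, 4 and 5 and the lower count 0 without mRNA library 1, 2 or 3.

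Textbook targets of islet and widespread microRNAs had medians above that of all genes in the main test, and most members of each list were not called. With at least 10 counts in every library the miR-17 family median was 0.05, against 0.15 over all genes. Of 19 tested let-7 targets, 3 were higher and 0 lower, with a median log2 fold change of 1.18. Plagl1, a zinc finger transcription factor, had 15.9, 15.1 and 26.3 CPM in mRNA libraries and 110, 104 and 126 CPM in RISC libraries (log2 fold change 2.57, SE 0.40, adjusted p = 0.00914). Igf1r, the receptor of insulin-like growth factor, had 86.3, 129 and 120 CPM and 793, 370 and 450 CPM (log2 fold change 2.27, adjusted p = 0.00983). The third, Plagl2, had a log2 fold change of 2.87 (SE 0.54, adjusted p = 0.0126), and its adjusted p rose to 0.0603 without mRNA library 1 and to 0.0571 without mRNA library 2. The let-7 higher count was 8 without RISC library 3, 6 without RISC library 2 and 2 without mRNA library 1 or 2.

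For miR-375, 5 of 18 tested targets were higher and 2 lower, with a median of 0.83. Elavl4, the neuronal RNA-binding protein HuD, had 26.0, 32.5 and 33.0 CPM in mRNA libraries and 173, 168 and 152 CPM in RISC libraries (log2 fold change 2.43, SE 0.26, adjusted p = 0.00791). Rasd1, a Ras-related protein gene, had 110, 129 and 184 CPM and 656, 917 and 871 CPM (log2 fold change 2.53, adjusted p = 0.00791). Both genes were several-fold higher in every RISC library. Lamc1 was higher by a log2 fold change of 1.16 (SE 0.19, adjusted p = 0.0102; 0.0523 without mRNA library 2). On the lower side, C1qbp had no count in any RISC library, at least 112-fold lower against a floor of 3 counts per library. Such bounds, here and below, cover counting error only and not the uneven coverage of RISC libraries. In miR-17-5p cells the log2 fold change of C1qbp was -1.48. Its adjusted p in control cells rose from 0.0126 to 0.0877, 0.0836 and 0.0709 without mRNA library 1, 2 or 3. Aifm1 on the higher side and Eef1e1 on the lower were also called, with adjusted p of 0.0745 to 0.175 when 1 mRNA library was left out. There were 3, 2 and 3 higher targets and 0 lower ones without mRNA library 1, 2 or 3.

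The miR-7 list had 2 of 23 tested members higher (8.70%, against 5.96% of all genes) and 1 lower. Its median was 0.17, but -0.43 and -0.12 without RISC library 1 or 3 and -0.05 under DESeq2's size factors. In these 3 settings the medians over all genes were -1.09, -0.80 and -0.87. Irs1, the adaptor of the insulin receptor, had 23.2, 40.9 and 65.3 CPM in mRNA libraries and 306, 282 and 421 CPM in RISC libraries, 7.79-fold higher (log2 fold change 2.97, SE 0.45, adjusted p = 0.00907). The kinase gene Mknk1 had a log2 fold change of 2.40 (SE 0.48, adjusted p = 0.0134), and its adjusted p rose to 0.0743, 0.0608 and 0.0615 without mRNA library 1, 2 or 3. Pak1 had no count in any RISC library (at least 40.9-fold lower; adjusted p = 0.0126, and 0.0745 and 0.0698 without mRNA library 1 or 2). The higher count was 5 without RISC library 1, 3 without RISC library 2 or 3, and 1 without any one mRNA library, and the lower count was 0 without mRNA library 1 or 2 and 2 in the other 4 cases.

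For the miR-17 family, 5 of 36 tested targets were higher and 3 lower, with a median of 0.42. The transporter gene Abca1, which moves cholesterol out of cells, had 109, 137 and 147 CPM in mRNA libraries and 811, 356 and 680 CPM in RISC libraries (log2 fold change 2.23, SE 0.35, adjusted p = 0.00958). Zfyve26 had 41.6, 44.1 and 34.5 CPM and 214, 119 and 203 CPM (log2 fold change 2.15, adjusted p = 0.00895). The lipoprotein receptor gene Vldlr had a log2 fold change of 1.55 (SE 0.28, adjusted p = 0.0107; 0.0561 without mRNA library 1 or 2). Bmpr2 and Smad7 were the other higher members, and E2f1, Fbxo31 and Sqstm1 the lower ones. Bmpr2, Smad7, E2f1 and Sqstm1 had adjusted p of 0.0533 to 0.158 when mRNA library 1 or 2 was left out. By the bound for counting error alone, Fbxo31 was at least 110-fold lower. In miR-17-5p cells its log2 fold change was -0.65 (adjusted p = 0.55). Its adjusted p in control cells was 0.0126, and rose to 0.0889, 0.0831 and 0.0716 without mRNA library 1, 2 or 3. Without mRNA library 1, 2 or 3, 2, 2 and 4 targets were higher and 0, 0 and 1 lower, without RISC library 3, 8 were higher, and without RISC library 1, 5 were lower.

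For miR-29, 4 of 23 tested targets were higher and 1 was lower, with a median of 0.83. Dnmt3a, a DNA methyltransferase, had 129, 163 and 184 CPM in mRNA libraries and 518, 569 and 660 CPM in RISC libraries (log2 fold change 1.88, SE 0.20, adjusted p = 0.00791). Nfat5, Lamc1 and Adamts9 were the other higher members, and Adamts9 had an adjusted p of 0.0524 to 0.139 when any library but RISC library 3 was left out. The lower member was Col1a1, a collagen chain that in islets is made by stellate cells and fibroblasts. It had 9876, 6610 and 5285 CPM in mRNA libraries and 1317, 1744 and 1055 CPM in RISC libraries (log2 fold change -2.40, SE 0.31, adjusted p = 0.00829). The miR-29 median was 0.49 without mRNA library 3 and 0.15 without RISC library 2. There were 2 higher members without mRNA library 2 and 3 lower ones without RISC library 2. Lists of targets named in textbooks overlap with genes that many tissues express, and whether the seeds above pair with these messages was not examined.

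Chromatin regulators had the highest share of higher calls among the lists with at least 6 tested members. Of 24 tested, 12 were higher and 0 lower, with a median of 1.07, and 21 names chosen for the list were not in the count tables. Arid1a, a subunit of the SWI/SNF remodelling complex, had 274, 304 and 328 CPM in mRNA libraries and 1011, 1175 and 963 CPM in RISC libraries (log2 fold change 1.80, SE 0.15, adjusted p = 0.00628). Crebbp, a histone acetyltransferase, had 103, 144 and 148 CPM and 587, 582 and 558 CPM (log2 fold change 2.13, SE 0.20, adjusted p = 0.00725). Both lay well apart in the 2 library types. Mll5 had a log2 fold change of 1.78, and the histone demethylase gene Kdm6b one of 1.55 (SE 0.18, adjusted p = 0.00791 for each). The count of higher members was 5, 5 and 8 without mRNA library 1, 2 or 3 and 12, 11 and 14 without RISC library 1, 2 or 3. With the replicate block it was 6.

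Of 144 tested zinc finger protein genes, 12 were higher (8.33%) and 20 lower (13.9%), against 5.96% and 22.3% of all genes. Of the 20 lower ones, 14 had no count in any RISC library. The list was mixed, around a median of 0.21. The sign of that median was not stable, but the median over all genes moved too. The list stood at -0.50 and -0.12 without RISC library 1 or 2, against -1.09 and -1.25 over all genes. It was -2.47 against -2.87 in limma-voom, and -2.10 against -2.38 with the replicate block. Zfp292 had 18.9, 17.3 and 15.8 CPM in mRNA libraries and 150, 163 and 123 CPM in RISC libraries (log2 fold change 3.07, SE 0.30, adjusted p = 0.00791). Among genes at least 10 counts deep in every library, 9 were higher and 1 was lower. Without mRNA library 1, 2 or 3, 4, 4 and 7 were higher, and without RISC library 1, 2 or 3, 45, 47 and 39 were lower.

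Of 25 tested immediate early genes, whose short-lived messages are induced by stimulation, 5 were higher and 0 lower, with a median of 0.45. In limma-voom their median was -0.35, against -2.87 over all genes. Zfp36, which encodes the AU-rich element binding protein tristetraprolin, had 72.9, 72.1 and 61.5 CPM in mRNA libraries and 265, 289 and 271 CPM in RISC libraries (log2 fold change 2.00, SE 0.19, adjusted p = 0.00725). Zfp36l1, a relative of Zfp36, had a log2 fold change of 1.83 (SE 0.32, adjusted p = 0.0103; 0.0534 and 0.0526 without mRNA library 1 or 2). Btg2, an antiproliferative gene, had a log2 fold change of 1.79 (SE 0.33, adjusted p = 0.0124; 0.0554 and 0.0536 without mRNA library 1 or 3). Dusp1 and Klf10 completed the 5, with adjusted p of 0.0534 to 0.122 when 1 mRNA library was left out. Without mRNA library 1, 2 or 3 the count was 1, 2 and 2.

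The islet's hormone messages went the other way: 7 of 9 tested were lower in RISC and 0 higher, with a median of -4.35. Ins1 had 248478, 264570 and 302562 CPM in mRNA libraries and 6228, 10375 and 6921 CPM in RISC libraries, 34.7-fold lower in RISC (log2 fold change -5.12, SE 0.26, adjusted p = 0.00365). Ins2 had 193258, 199346 and 224585 CPM and 7024, 8976 and 5060 CPM, 29.3-fold lower (log2 fold change -4.87, SE 0.26, adjusted p = 0.00365). No RISC library came near any mRNA library for either insulin gene. Ins1 and Ins2 are close copies of each other, and how counts were split between them cannot be seen in the tables.

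Iapp, the amyloid polypeptide secreted with insulin, was 4.00-fold lower, with 1892, 1731 and 2019 CPM against 422, 543 and 444 CPM (SE of the log2 fold change 0.16, adjusted p = 0.00543). Gcg, the glucagon gene of alpha cells, had 15889, 11759 and 10578 CPM in mRNA libraries and 3129, 6239 and 3437 CPM in RISC libraries (log2 fold change -1.58, SE 0.33, adjusted p = 0.0155), and its adjusted p was 0.0578 without mRNA library 1 and 0.0512 without mRNA library 2. Ppy, the pancreatic polypeptide gene, had 2625, 1313 and 1522 CPM and 69.4, 57.8 and 152 CPM (log2 fold change -4.29, SE 0.53, adjusted p = 0.00817). These 3 genes were lower in every RISC library, Gcg less so than Ppy in fold.

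Pyy was lower with a log2 fold change of -2.04 (SE 0.31, adjusted p = 0.0091). Sst was not called, with 1522, 1183 and 1091 CPM in mRNA libraries and 68.7, 59.8 and 0 CPM in RISC libraries (adjusted p = 0.105). Its adjusted p was 0.00769 without RISC library 3 and 0.00565 in DESeq2's Wald test. Ghrl, the ghrelin gene, was not called either, with 195, 0 and 0 counts in RISC libraries (adjusted p = 0.29, and 0.00996 without RISC library 1). The seventh lower hormone gene, Cck, had no count in any RISC library and was named after its values were seen. In bulk samples fewer cells of a type and less RNA per cell cannot be told apart.

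Other products of the secretory granule divided. Of 25 tested granule and prohormone processing genes, 5 were lower and 3 higher. Their median was -0.70 against -0.69 over all genes, but -0.56 against 0.15 with at least 10 counts in every library and -0.45 against -1.09 without RISC library 1. Chga, the granule matrix protein chromogranin A, had 1506, 1443 and 1677 CPM in mRNA libraries and 354, 347 and 340 CPM in RISC libraries (log2 fold change -2.15, SE 0.13, adjusted p = 0.00365). Resp18 had 2170, 2185 and 1957 CPM and 558, 550 and 582 CPM (log2 fold change -1.90, SE 0.12, adjusted p = 0.00371). Ptprn, the granule membrane protein IA-2, had a log2 fold change of -1.85 (SE 0.22, adjusted p = 0.00791). Pcsk1, the convertase that cuts proinsulin, was higher in RISC, with 349, 418 and 506 CPM against 1041, 1136 and 949 CPM (log2 fold change 1.30, SE 0.18, adjusted p = 0.00845). So Chga and Pcsk1 lay on opposite sides, and no split of cargo genes from enzyme genes was examined. Pam and Scg2 were the other higher members, with adjusted p of 0.0586 to 0.164 when 1 mRNA library was left out, which left Pcsk1. Pam had an adjusted p of 0.0951 and 0.0569 without RISC library 2 or 3, and of 0.131 under DESeq2's size factors. The lower ones were 8 without RISC library 2.

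The transcription factors of beta cells also stood above the other genes, with 4 of 16 tested higher, 0 lower and a median of 0.81. After Neurod1 came St18, a zinc finger factor, with 133, 185 and 171 CPM in mRNA libraries and 602, 613 and 706 CPM in RISC libraries (log2 fold change 1.98, SE 0.19, adjusted p = 0.00766). Rfx6, a factor of endocrine development, had a log2 fold change of 2.06 (SE 0.39, adjusted p = 0.0127), and its adjusted p was 0.0603, 0.0527 and 0.0506 without mRNA library 1, 2 or 3. Without any one mRNA library the count was 2, Neurod1 and St18, and without RISC library 2 or 3 it was 6.

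Genes of glucose sensing and secretion coupling were mixed, with 2 of 20 tested higher and 6 lower. Cacna1c, the pore of an L-type calcium channel, had 102, 111 and 122 CPM in mRNA libraries and 297, 269 and 255 CPM in RISC libraries (log2 fold change 1.30, SE 0.18, adjusted p = 0.00839). The incretin receptor gene Gipr had 453, 467 and 425 CPM and 41.4, 77.2 and 107 CPM (log2 fold change -2.57, SE 0.38, adjusted p = 0.00891). Mdh1, a malate dehydrogenase, had a log2 fold change of -1.75 (SE 0.23, adjusted p = 0.00829). Atp2a2 was the other higher member (adjusted p = 0.0743 to 0.089 when 1 mRNA library was left out). Leaving out mRNA library 1, 2 or 3 left 1 member higher each time and 3, 3 and 4 lower.

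Messages of the translation and energy machinery were called lower in RISC more often than higher, as were all genes tested (22.3% against 5.96%). Many members of each list were not called. The share lower was 45.9% for cytosolic ribosomal proteins, 42.3% for the respiratory chain and ATP synthase and 47.6% for mitochondrial ribosomal proteins. Of 74 tested genes of cytosolic ribosomal proteins, 34 were lower and 0 higher, the median was -4.80, and 73 had every RISC value below every mRNA value, against 39.9% of all genes tested. Rpl32 had 636, 622 and 552 CPM in mRNA libraries and 26.4, 29.3 and 28.0 CPM in RISC libraries, 21.6-fold lower (log2 fold change -4.43, SE 0.17, adjusted p = 0.00337). Rpl41 had 1372, 1373 and 1123 CPM and 99.7, 128 and 99.0 CPM (log2 fold change -3.56, SE 0.19, adjusted p = 0.00365). For both genes the 3 RISC libraries gave nearly the same low value. Ribosomal protein genes have many processed copies in the genome, and counts can be split or lost among them.

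Other ribosomal protein messages were almost absent from RISC libraries. Rpl37 had 1 count over the 3 RISC libraries, against 479, 384 and 400 CPM in mRNA libraries, and its pooled mRNA to RISC ratio was 13801, with an exact 95% interval of 2476 to 545176 that covers counting error only. Rps29, with 2 counts, had a ratio of 10457 (2894 to 86354), and Rpl36, with 3 counts, one of 4500 (1539 to 21825). So within 1 protein complex the messages ranged from a modest level in RISC libraries to hardly any. Of the 74 genes, 38 had no count in at least 1 RISC library. The lower calls were 26, 28 and 29 without mRNA library 1, 2 or 3 and 50, 51 and 43 without RISC library 1, 2 or 3. With at least 10 counts in every library, 22 of 23 tested ribosomal protein genes were lower.

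LOC301124, a locus the tables give no other name, had 259, 211 and 218 CPM in mRNA libraries and 2 counts over the RISC libraries, a pooled ratio of 3758 with an exact interval of 1040 to 31037.

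Of 71 tested genes of the respiratory chain and ATP synthase, 30 were lower and 0 higher, with a median of -4.08, or -3.61 with genes at 0 in RISC set to their bound. Atp5a1, the alpha subunit of ATP synthase, had 354, 359 and 301 CPM in mRNA libraries and 16.4, 15.5 and 19.1 CPM in RISC libraries, 19.9-fold lower (log2 fold change -4.31, SE 0.22, adjusted p = 0.00365). Its partner Atp5b, the beta subunit, had 613, 616 and 563 CPM and 98.9, 54.2 and 105 CPM (log2 fold change -2.80, SE 0.30, adjusted p = 0.00791). Ndufb8, a subunit of complex I, had 162, 146 and 152 CPM in mRNA libraries and no count in RISC libraries, at least 452-fold lower. Uqcr11, of complex III, had 1 count, a pooled ratio of 4588 (exact interval 823 to 181304). The count of lower genes was 12, 13 and 17 without mRNA library 1, 2 or 3, and the median was -6.38 without RISC library 1. The count was 6 of 9 tested with at least 10 counts in every library, and 9 with the replicate block. Of the 30 lower genes, 23 had no count in any RISC library, and every tested gene of that kind was called lower.

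Of 63 tested mitochondrial ribosomal protein genes, 30 were lower and 0 higher, with a median of -5.23, or -4.37 with genes at 0 set to their bound. Without RISC library 1, 2 or 3 the median was -8.92, -9.36 and -7.56 and the count 41, 46 and 36. The count was 3, 3 and 9 without mRNA library 1, 2 or 3, and 1 of 3 tested with at least 10 counts in every library. With the replicate block it was 0. Of the 30 lower genes, 24 had no count in any RISC library, and every tested gene of that kind was called lower. Mrpl50 had 12.2, 11.1 and 7.51 CPM in mRNA libraries and no count in RISC libraries, at least 30.3-fold lower. Proteasome subunits had 9 of 37 tested lower (24.3%, near the 22.3% of all genes) and 0 higher, with a median of -2.33. Of the 9 lower subunits, 4 had no count in any RISC library, and with the replicate block 0 were called. Psmb4 had no count in RISC libraries, at least 238-fold lower (adjusted p = 0.00829; 0.0508 without mRNA library 1). The count of lower subunits was 1, 2 and 3 without mRNA library 1, 2 or 3 and 16 and 15 without RISC library 2 or 3.

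Glycolytic genes had 7 of 18 tested lower and 1 higher, with a median of -1.91. Aldoa, an aldolase, had 1561, 1277 and 1198 CPM in mRNA libraries and 243, 270 and 122 CPM in RISC libraries (log2 fold change -2.67, SE 0.34, adjusted p = 0.00829). The pyruvate kinase gene Pkm had 2200, 1736 and 1655 CPM and 528, 769 and 584 CPM (log2 fold change -1.57, SE 0.21, adjusted p = 0.00829). Eno1, an enolase, had 1173, 840 and 899 CPM and 156, 287 and 284 CPM (adjusted p = 0.00903). The higher member was Ldhb, with adjusted p of 0.0583 to 0.103 when any library but RISC library 3 was left out. Without mRNA library 1 or 2, 4 were lower, and 0 were higher without any one mRNA library.

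Translation factors had 9 of 31 tested lower (29.0%, against 22.3% of all genes) and 1 higher, with a median of -1.67. Eef2, the factor of ribosome translocation, had 2797, 2338 and 2129 CPM in mRNA libraries and 541, 879 and 662 CPM in RISC libraries (log2 fold change -1.80, SE 0.23, adjusted p = 0.00817). Tpt1, whose message belongs to the class with a terminal oligopyrimidine start, had 541, 558 and 481 CPM and 39.0, 48.4 and 103 CPM (log2 fold change -3.05, SE 0.43, adjusted p = 0.00845). Eef1g, a subunit of elongation factor 1, had a log2 fold change of -1.85 (SE 0.24, adjusted p = 0.00829). The higher member was Eif3a, with adjusted p of 0.051 to 0.0879 when any library but RISC library 3 was left out. The lower count was 14 without RISC library 3 and 6 without mRNA library 1.

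Messages for the entry of proteins into the endoplasmic reticulum had 5 of 30 tested lower (16.7%, below the 22.3% of all genes) and 1 higher. Sec63, a partner of the translocon, was the higher one, with 163, 166 and 172 CPM in mRNA libraries and 488, 433 and 447 CPM in RISC libraries (log2 fold change 1.45, SE 0.15, adjusted p = 0.00791). Dad1, of the oligosaccharyltransferase, had 237, 277 and 284 CPM and 38.9, 39.0 and 54.9 CPM (log2 fold change -2.59, SE 0.24, adjusted p = 0.00725). Ddost, of the same enzyme, had a log2 fold change of -1.71 (SE 0.18, adjusted p = 0.00791), and Sec61g, a small translocon subunit, had no count in RISC libraries (at least 250.1-fold lower). Members of 1 complex, the translocon and its partners, thus lay on both sides. The lower count was 3 without any one mRNA library and 10, 8 and 10 without RISC library 1, 2 or 3.

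Among 20 tested chaperones of the endoplasmic reticulum, 2 were higher and 2 lower. Ero1lb, the oxidase of beta cells, had 120, 121 and 165 CPM in mRNA libraries and 841, 570 and 697 CPM in RISC libraries (log2 fold change 2.37, SE 0.24, adjusted p = 0.00791). The disulfide isomerase gene P4hb, whose product Ero1 oxidases reoxidise, had 998, 887 and 967 CPM and 200, 319 and 333 CPM (log2 fold change -1.74, SE 0.23, adjusted p = 0.00837). Canx, higher, and Pdia6, lower, were the other 2, with adjusted p of 0.0559 to 0.107 when 1 mRNA library or RISC library 1 was left out. Without any one mRNA library, 1 was higher and 1 lower, and without RISC library 1, 2 or 3, 5, 6 and 4 were lower.

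**Figure D4:**
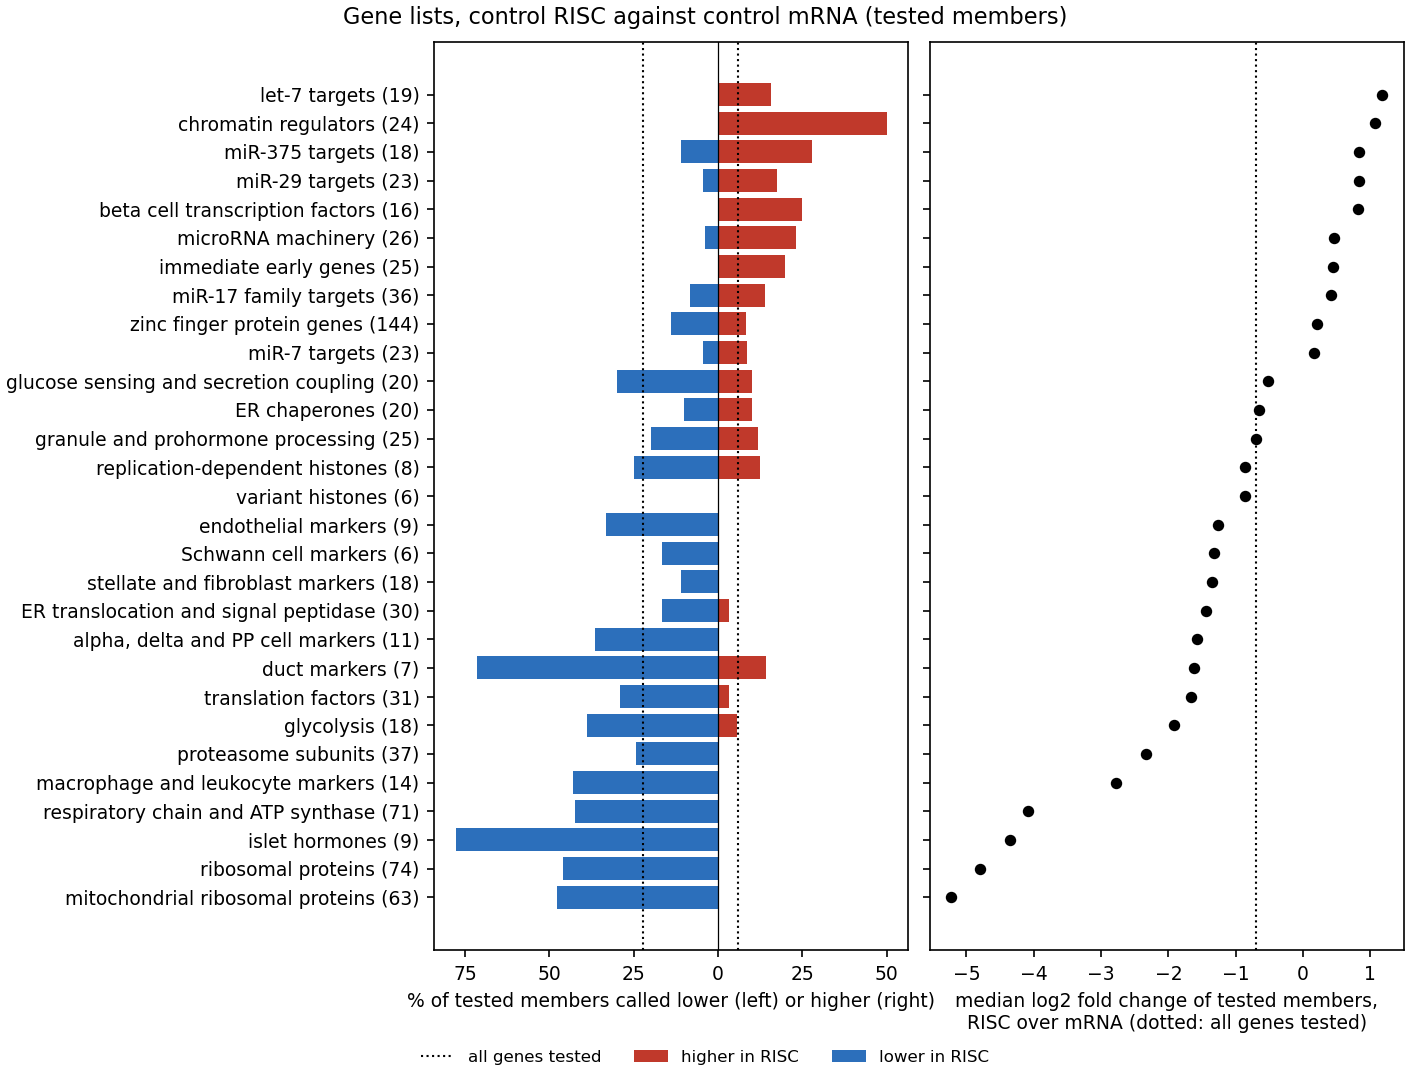
Left, the percentage of tested members of each gene list called lower (bars to the left) or higher (bars to the right) in control RISC libraries, with dotted lines at the percentages of all genes tested, 22.3% and 5.96%; right, the median log2 fold change of the list, with a dotted line at -0.69. The number of tested members is in brackets, and chromatin regulators lie at 50% higher and islet hormones at 77.8% lower.

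Noncoding RNAs fell on both sides. H19, an imprinted long noncoding RNA that hosts a microRNA, had 187, 91.5 and 105 CPM in mRNA libraries and 1564, 1818 and 758 CPM in RISC libraries, 10.8-fold higher (log2 fold change 3.43, SE 0.47, adjusted p = 0.00845). Snhg11, a host gene of small nucleolar RNAs, had 312, 385 and 404 CPM and 30.3, 29.8 and 25.5 CPM, 12.9-fold lower (log2 fold change -3.68, SE 0.21, adjusted p = 0.00365). Gas5, another such host gene, had no count in RISC libraries (at least 186-fold lower; adjusted p = 0.00914, and 0.0676, 0.0527 and 0.055 without mRNA library 1, 2 or 3). Rn45s was not called, with 36634, 126036 and 97441 CPM against 190465, 372024 and 165761 CPM (log2 fold change 1.49, SE 0.55, adjusted p = 0.112), although its groups did not overlap. Rn28s overlapped between the groups, with a log2 fold change of -1.58 (SE 0.77, adjusted p = 0.233). Counting was not strand-specific, so reads from overlapping genes on opposite strands cannot be told apart.

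Of 8 tested replication-dependent histone genes, whose messages end without a poly(A) tail, 1 was higher and 2 lower. The higher one, Hist1h1d, had 5.15, 1.82 and 1.50 CPM in mRNA libraries and 69.5, 34.9 and 31.2 CPM in RISC libraries (log2 fold change 3.98, SE 1.02, adjusted p = 0.0319). Its adjusted p was 0.0936, 0.181 and 0.131 without mRNA library 1, 2 or 3. The lower ones, Hist2h2ab and Hist3h2a, had no count in RISC libraries. Without mRNA library 2 or 3 the lower count was 1 and 4, and without RISC library 1, 2 or 3 it was 5, 6 and 6. Of 6 tested variant histone genes, 0 were called in the main test, and 1 was lower in DESeq2's Wald test and 2 in limma-voom. In edgeR, 1 was lower with at least 10 counts in every library, 1 without RISC library 1 and 3 without RISC library 2.

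The marker lists of other cells of an islet preparation differed in how many members were called lower, to be read against 22.3% of all genes. In the mRNA libraries the endocrine genes Ins1, Ins2, Iapp, Gcg, Sst, Ppy and Pyy had counts in every library. The 17 acinar markers summed to between 16.1 and 55.5 CPM in mRNA libraries and between 44.9 and 87.2 CPM in RISC libraries, and 7 of them had no count in RISC. None of those 7 was tested, and 3 acinar markers had no count in any mRNA library. Of 5 tested acinar markers 1 was lower, and 3 were without RISC library 1 or 2. Alpha, delta and PP cell markers summed to between 14065 and 21500 CPM in mRNA libraries and between 3655 and 6885 CPM in RISC libraries, with 4 of 11 tested lower (2 without mRNA library 1 and 7 without RISC library 1). For ducts 5 of 7 tested were lower and 1 higher, and the sums were 1071 to 1399 CPM and 436 to 457 CPM. Krt8, a keratin, had 622, 457 and 434 CPM and 132, 164 and 197 CPM (log2 fold change -1.62, SE 0.24, adjusted p = 0.00895). Epcam, an epithelial adhesion protein, had a log2 fold change of -1.43 (SE 0.30, adjusted p = 0.0153, and 0.078, 0.0841 and 0.0585 without mRNA library 1, 2 or 3). The number of lower duct markers was 1, 2 and 1 in those 3 cases.

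Stellate and fibroblast markers summed to between 13045 and 22719 CPM in mRNA libraries and between 4991 and 11022 CPM in RISC libraries, with 2 of 18 tested lower. Vim, the intermediate filament vimentin, had 1191, 893 and 676 CPM and 36.4, 105 and 36.6 CPM (log2 fold change -3.95, SE 0.56, adjusted p = 0.00861), and Col1a1 is given above. Col3a1, another collagen, overlapped, with 4359, 2901 and 2596 CPM and 1435, 4258 and 1486 CPM (adjusted p = 0.662; 0.0221 without RISC library 2). Without RISC library 2 or 3, 5 and 6 stellate markers were lower. Col1a1 was not called in limma-voom (adjusted p = 0.0863).

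Macrophage and leukocyte markers summed to between 128 and 506 CPM in mRNA libraries and between 0.168 and 136 CPM in RISC libraries, with 6 of 14 tested lower and 13 of the 14 at 0 in at least 1 RISC library. Of the 6 lower ones, 4 had no count in any RISC library. Cd14 had 7.9, 7.6 and 10.5 CPM in mRNA libraries and no count in RISC libraries, at least 25.5-fold lower. C1qa had 1 count in RISC libraries, a pooled ratio of 1470 with an exact interval of 263 to 58146 (adjusted p = 0.0102; 0.0536 and 0.0567 without mRNA library 1 or 2). The lower count was 1 without mRNA library 1 and 10 without RISC library 2. Of the endothelial markers 3 of 9 tested were lower, with 206.8 to 295 CPM in mRNA and 126 to 330 CPM in RISC libraries in sum, so the sums overlapped. The endothelial count was 6 and 5 without RISC library 1 or 2. Of the Schwann cell markers 1 of 6 tested was lower (143 to 234 CPM and 6.21 to 178 CPM), and of the red blood cell genes 3 of 4 (42.4 to 185 CPM and 0 to 14.6 CPM). The 3 lower red blood cell genes had no count in any RISC library. The Schwann cell count was 2 without mRNA library 3 and 4 without RISC library 1, and the red blood cell count 1 without any one mRNA library. Tested markers at 0 in all 3 RISC libraries included Vwf of endothelium, Cd14, Cd74 and Lyz2 of macrophages, and Hba2 and Hbb of red blood cells. Ttr of alpha cells, Cela2a and Pnlip of acinar cells, Muc1 of ducts and Alas2 of red blood cells were also at 0 there. These did not pass the filter and were not tested. Col1a2 of stellate cells had no count in either library type. The part of these cells in the results was not tested.

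The same contrast in cells given the miR-17-5p mimic, with 4 RISC and 5 mRNA libraries, called 2361 of 10871 genes higher (21.7%) and 2366 lower (21.8%). Of the 606 genes higher in control cells, 586 were also called higher there, 96.7% of the control list and 25.2% of the other list among genes tested in both, and 605 had a positive fold change. Their median log2 fold change was 1.90 in control cells and 1.66 in the miR-17-5p cells. Neurod1 had 2.52 and 2.64, Zfp652 2.88 and 2.75, Tnrc6b 2.75 and 2.33, and H19 3.43 and 2.56. The higher list thus recurred almost whole in libraries that share no sample with it.

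The lower list recurred in part. Of 2186 genes lower in control cells and tested in both, 824 were lower in miR-17-5p cells, 37.7% of the control list and 36.4% of the other, while 20 were called higher there. Their medians were -8.81 and -1.49, where the first rests on genes with no RISC counts and is no bound. Ins1 had -5.12 in both kinds of cell, Ins2 -4.87 and -4.79, Rpl32 -4.43 and -4.49, and Rpl41 -3.56 and -3.36. Of the lists, 73 of 75 tested ribosomal protein genes were lower and 0 higher in miR-17-5p cells, and 8 of 8 hormone genes were lower. Higher were 23 of 24 chromatin regulators, 17 of 21 let-7 targets, 15 of 26 genes of the silencing machinery and 25 of 36 miR-17 family targets. Over all genes tested in these cells, 21.7% were higher and 21.8% lower. The mimic given to these cells belongs to the miR-17 family, so that last list is not a plain repeat of the control result.

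The difference between the 2 contrasts was tested in all 15 libraries. Of 11418 genes, 45 (0.394%) had a higher RISC to mRNA ratio in control cells and 1488 (13.0%) a lower one. Among genes called higher in control cells 14 of 606 differed, and among those called lower 1249 of 2186. Atp5a1 was lower in RISC by -4.31 in control cells and by -0.95 in miR-17-5p cells (difference -3.21 on the log2 scale, SE 0.37, adjusted p = 9.09e-05). Slmap had 2.77 and 1.68 (difference 1.24, SE 0.32, adjusted p = 0.0181), and Vim -3.95 and -1.51 (difference -2.29, SE 0.49, adjusted p = 0.00584). Of 24 chromatin regulators and 26 immediate early genes tested, 0 differed in edgeR. These calls moved with the filter and the test: with at least 10 counts in every library 5 were higher and 6 lower (532 at an unadjusted p under 0.05), and in limma-voom 0 of either kind were called (2234 at an unadjusted p under 0.05). Without control RISC library 1 or 2 there were 2412 and 2853 calls in place of 1533.

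**Figure D5:**
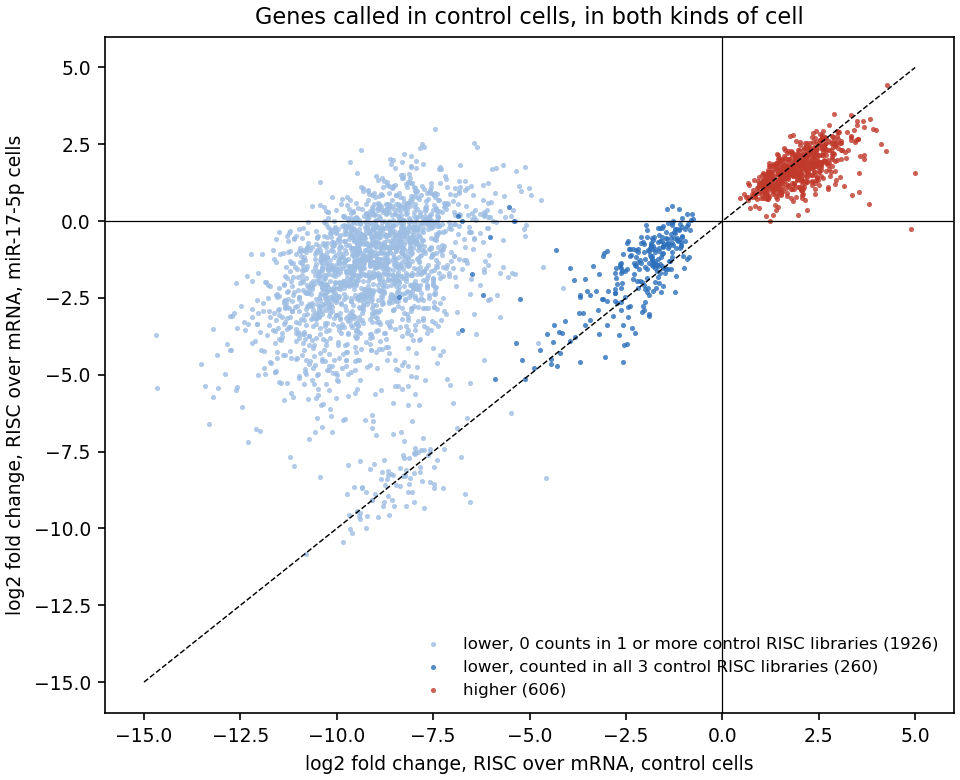
Log2 fold change of RISC over mRNA in control cells (x axis) and in miR-17-5p cells (y axis) for genes called in control cells and tested in both, with the dashed line at equal values. The 606 higher genes (red) follow the line, as do many of the 260 lower genes with counts in all 3 control RISC libraries (dark blue), and the 1926 lower genes with 0 counts in 1 or more of them (light blue) mostly lie above it.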

How the data were processed

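The 15 libraries are single-end without strand information, per the labels' protocols. Per the submitters' processing notes, the authors aligned reads to the rat genome (rn5) using TopHat2 2.0.10 with Bowtie2. HTSeq then gave the deposited values, raw counts for each gene symbol. Versions of the other tools, and which annotation was used: not given in the sources used here. Each table's 5 summary lines were left out, which left 17055 genes, of which 14175 symbols matched RefSeq. Libraries were grouped by title, and title and description give different replicate numbers.

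From the counts, edgeR 4.0.16 in R 4.3.3 (TMM, filterByExpr, robust quasi-likelihood F-test, two-sided, Benjamini-Hochberg adjusted p under 0.05) gave calls. SE is the log2 fold change divided by the root of F. The biological coefficient of variation shared by all genes was 1.20 for control cells and 0.584 for miR-17-5p cells. Totals of 3379456 to 13420403 counts set the precision. The floor is 3 counts per library, and bounds against it cover counting error only. Alternatives used DESeq2 1.42.0 and limma 3.58.1, other filters, other scaling and left-out libraries. Tests were also run on simulated counts with the same spread in both library types, so that check does not cover the uneven RISC coverage.

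Named genes were, per direction, the 12 of smallest p whose mean log2 CPM reached 5, then as many as 4 members from each of 33 lists (called ones first), the hormone genes, Rn45s, H19 and the Argonaute and Tnrc6 genes. Members and lists were chosen with earlier results of these data known. The lists cover microRNA genes and targets, silencing machinery, chromatin, zinc finger, histone, granule, metabolic, translation, proteasome and endoplasmic reticulum genes and cell type markers. Single values of a few list members are not reported here.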

Additional observations from a re-analysis of the deposited data

Results flagged for a closer look

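The RISC to mRNA contrast differed between control and miR-17-5p cells, by the test of the difference itself, for 1533 genes, among them 27 of the genes named above. In these the log2 fold change of control cells was below that of miR-17-5p cells for the ribosomal protein genes Rpl37 (adjusted p = 2.99e-06), Rps29 (4.86e-06) and Rpl36 (0.00013), for Atp5a1 (9.09e-05), Ndufb8 (0.0454) and Uqcr11 (0.0309), for Psmb4 (0.000437), Sec61g (0.0189) and LOC301124 (0.00572), and for the microRNA targets C1qbp (7.52e-05), Pak1 (0.00245), Fbxo31 (0.0028), E2f1 (0.0488) and Eef1e1 (0.000127). The same held for Aldoa (0.0298), Pkm (0.0254), Eef2 (0.0179), Vim (0.00584), Prkra (0.000279), Hist2h2ab (0.0159), C1qa (0.000295), Cd14 (0.00141), Cd74 (0.000313) and Lyz2 (0.0040). It was above that of miR-17-5p cells for Slmap (0.0181), Per2 (0.0257) and St18 (0.0296). Of these genes, 19 had at most 3 counts over the control RISC libraries, and the size of the difference is then no bound.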

How the results depend on the processing

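In control cells the main test called 2870 genes, and other scalings (DESeq2 size factors, upper quartile, or leaving out Rn45s, Ins1 and Ins2) gave 2808 to 2914. DESeq2 size factors moved the median log2 fold change of all genes by -0.19. A mean of at least 50 counts left 1254 calls (807 lower), and at least 10 counts in every library left 1042 (469 lower); fewer genes were tested there. Higher genes made up 35.6% and 55.0% of those calls, against 21.1% in the main test. DESeq2's Wald test called 977 higher. Leaving out 1 library gave 1255 to 4540 calls, 201 to 960 higher and 1054 to 3780 lower. Deviations of same-numbered RISC and mRNA libraries hardly correlated (r of -0.008, 0.048 and 0.025), and all pairs lay between -0.060 and 0.048. RISC libraries 2 and 3 correlated best with the mRNA library of the same number, and RISC library 1 with mRNA library 3. The sources do not say whether a number marks a shared culture. The replicate block gave 338 calls, 171 higher and 167 lower. The difference from miR-17-5p cells, main count 1533 (45 higher), had 68 higher under DESeq2 size factors, 29 without a filter, 16 with a mean of at least 50 counts and 262 in DESeq2's Wald test. With at least 10 counts in every library it had 11 calls (5 higher, 6 lower), and in limma-voom 0 (0 higher, 0 lower; 2234 at an unadjusted p under 0.05). Leaving out 1 control library gave 1203 to 2853 calls, 12 to 92 higher and 1191 to 2765 lower. The cause of these shifts was not tested. Of the named genes only Mir3593, which was not called and has counts in 1 RISC library, changed direction: from a log2 fold change of 1.40 to -2.31 in limma-voom, to -4.41 with the replicate block and, with 1 library left out, to between -6.76 (without RISC library 2) and 2.00. The planned comparison with protein length was not run. Depth limits low genes most, since 3 counts in a RISC library stand for 0.175 to 0.503 CPM.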
